A study of Homo sapiens with 6 samples.

Results

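The HLA class I and antigen loading genes examined here were 9 genes taken by name: the heavy chain genes HLA-B, HLA-C, HLA-E and HLA-F, the light chain gene B2M, the peptide transporter genes TAP1 and TAP2, the tapasin gene TAPBP, and the transactivator gene NLRC5. They are 9 of the 26255 genes in the deposited tables, and 9 of 9 reached the mean FPKM of 1 that was required of the 12203 genes tested. FPKM is the number of fragments scaled by transcript length and by the mapped reads of the sample, so it is relative to its library. Levels compared between HLA genes also depend on how well reads from the cells' own alleles map to the reference, which is not known here. Poly(A)-selected, strand-specific libraries of HCT116, a human colorectal carcinoma cell line, were sequenced for parent cells, cells given the siRNA siLINC01534-1 and cells given the siRNA siLINC01534-2, with 2 samples in each of the 3 groups. The siRNAs target LINC01534, a long noncoding RNA, and the comparison asks what its silencing does to the transcriptome. The methods of the study give Lipofectamine RNAiMax as the transfection reagent. The labels do not describe the parent cells as transfected, cells given the control siRNA are not analysed here, and no time after transfection is given for these samples, so silencing and transfection cannot be told apart. The labels number 2 samples per group where the methods speak of triplicate, and nothing says that the 2 came from separate cultures, so p-values measure the spread between these samples only.

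Class I molecules present peptides from inside the cell at its surface to CD8+ T cells. Proteasomes cut proteins into peptides, the TAP1 and TAP2 proteins carry the peptides into the endoplasmic reticulum, tapasin bridges the transporter and the empty heavy chain, and the loaded heavy chain leaves for the surface together with beta-2-microglobulin. Transcription of these genes is known to respond to interferon gamma through interferon response elements, to NF-kappa B through kappa B sites, and to NLRC5 through a promoter module shared by the class I genes.

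The level of LINC01534 was low in the 6 samples. It was 0.285 and 0.571 FPKM in parent, 0 and 0.283 FPKM in siLINC01534-1, and 0.660 and 0.551 FPKM in siLINC01534-2. In these values it was not lower in the samples labelled siLINC01534-2, and the groups are named here by their labels. All 6 values lay under 1 FPKM, the mean required for testing. They are too low to show whether LINC01534 was silenced. By qRT-PCR in HCT116 cells, the paper reports that both siRNAs strongly reduced LINC01534 compared with the negative control siRNA. The files hold no read totals, and the steps between low FPKM gave estimates of 8680000 to 10400000 reads per sample. Epithelial markers were high, with EPCAM at up to 204 FPKM and KRT8 at up to 1730 FPKM, although VIL1 and CDX1 did not exceed 0.0633 FPKM. Among 6 leukocyte markers CD3E was listed at 0 in every sample, and the list's summed level ranged from 3.59 to 4.70 FPKM in parent, 4.61 to 5.27 FPKM in siLINC01534-1 and 7.40 to 8.13 FPKM in siLINC01534-2, mostly from CD68. Among 6 fibroblast and endothelial markers DCN was listed at 0 in every sample, and the sum ranged from 3.10 to 3.21, 5.25 to 5.94 and 3.89 to 4.37 FPKM in the same order, mostly from COL1A1. The part of these markers in the results was not tested. In bulk samples, fewer cells that express a gene and less RNA per cell cannot be told apart.

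The promoters of members that rose and of members that did not are shown first, since class I promoters carry well-known elements close to the transcript start. RefSeq windows of 300 bases (GRCh38.p14), from 250 bases before to 50 bases after the start, matched 7 of the 9 members, and HLA-E and NLRC5 had no entry. The stretch of TAP2, which held no kappa B type match, is not printed. The stretches below run 5′ to 3′ on the strand of the gene and span the matches upstream of the start. Capitals mark matches on either strand to 5 sets of letters that were chosen with these promoters in view: GGGNNTTNNC (kappa B type), AGTTTCNNTT (the interferon response element of class I promoters), GAAANNGAAA (interferon response repeat), TGACGC (as in the X2 box of class I promoters) and CCAAT.
HLA-B (chr6:31357223-31357364, minus strand): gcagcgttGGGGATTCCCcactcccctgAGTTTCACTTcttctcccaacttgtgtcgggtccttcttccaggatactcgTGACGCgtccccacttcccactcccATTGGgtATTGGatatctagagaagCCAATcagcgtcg
HLA-C (chr6:31272136-31272292, minus strand): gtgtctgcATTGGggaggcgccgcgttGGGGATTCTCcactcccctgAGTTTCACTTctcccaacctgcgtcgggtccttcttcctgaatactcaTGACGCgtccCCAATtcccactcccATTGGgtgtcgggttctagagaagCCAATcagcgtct
HLA-F (chr6:29723247-29723389, plus strand): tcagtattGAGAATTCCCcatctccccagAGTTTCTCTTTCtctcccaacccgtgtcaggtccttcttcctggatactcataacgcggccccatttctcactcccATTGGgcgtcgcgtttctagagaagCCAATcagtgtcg
B2M (chr15:44711365-44711480, plus strand): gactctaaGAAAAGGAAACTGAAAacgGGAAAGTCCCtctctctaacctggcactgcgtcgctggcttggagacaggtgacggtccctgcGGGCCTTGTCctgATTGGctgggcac
TAP1 (chr6:32853759-32853954, minus strand): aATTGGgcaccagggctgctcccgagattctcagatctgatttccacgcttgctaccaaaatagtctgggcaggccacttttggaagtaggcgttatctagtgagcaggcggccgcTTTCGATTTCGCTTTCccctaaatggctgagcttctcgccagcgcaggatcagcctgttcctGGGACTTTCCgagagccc
TAPBP (chr6:33314079-33314142, minus strand): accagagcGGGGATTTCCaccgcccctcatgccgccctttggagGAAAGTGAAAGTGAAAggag

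HLA-B and HLA-C held the same order of matches, a kappa B type match, an interferon response match, TGACGC and CCAAT, within fewer than 200 bases of the start. Each held 3 CCAAT matches after TGACGC, and HLA-C held 1 more upstream of the kappa B type match. HLA-F held the first pair and CCAAT without TGACGC. The kappa B letters were found in 6 of the 7 members (HLA-B, HLA-C, HLA-F, B2M, TAP1 and TAPBP) and in 15.1% of the 35116 RefSeq windows. AGTTTCNNTT was found in 4 of the 7 (HLA-B, HLA-C, HLA-F and B2M) and in 1.57% of windows, and GAAANNGAAA in 5 of the 7 (HLA-F, B2M, TAP1, TAP2 and TAPBP) and in 3.57% of windows. In HLA-F and B2M the matches to these 2 sets of letters overlapped each other. TGACGC was found in 3 of the 7 (HLA-B, HLA-C and TAP2) and in 9.14% of windows, and CCAAT in 5 of the 7 (HLA-B, HLA-C, HLA-F, B2M and TAP1) and in 34.6% of windows. Over the 13112 windows of tested genes, the shares were 16.3% for the kappa B letters and 13.3% for TGACGC. They were 1.05% for AGTTTCNNTT, 2.66% for GAAANNGAAA and 34.6% for CCAAT. TAP1 has a second RefSeq window further downstream, which held 0 matches. These matches describe letters and do not show that a factor was bound.

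**Figure D1:**
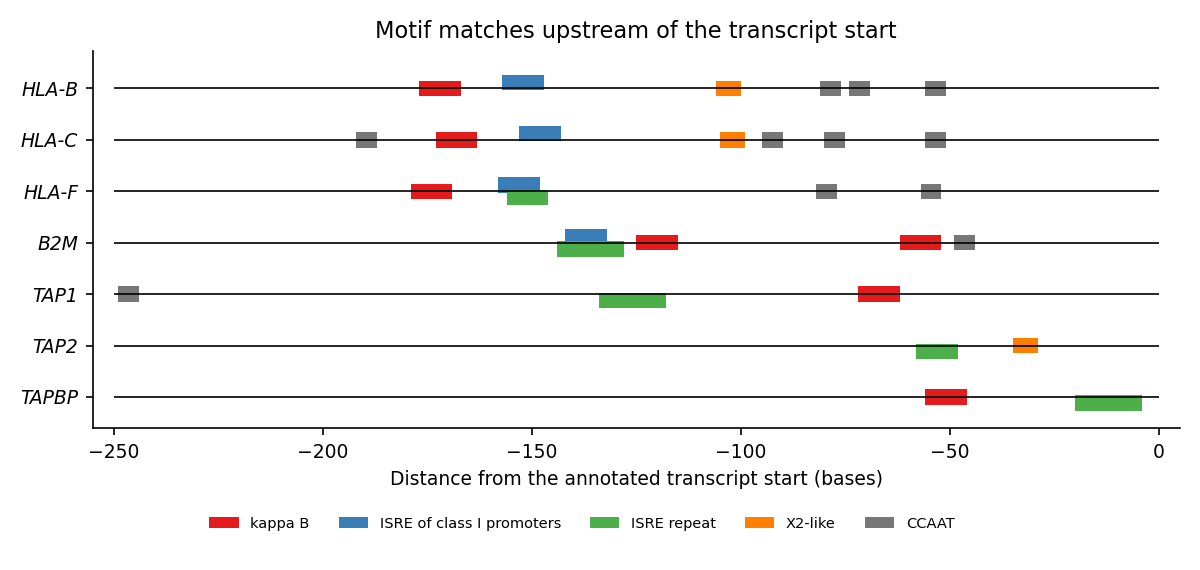
Positions of the 5 sets of motif letters in the 250 bases before the annotated transcript start of the 7 members with a RefSeq window (x axis, bases from the start; 1 line per gene; coloured bars, matches on either strand). HLA-B and HLA-C show the same order of matches, and the kappa B bar is present in 6 of the 7 genes and lacking in TAP2.

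Across the members, HLA-B, HLA-C, B2M and TAP1 rose when both siRNAs were set against parent, and 0 of the 9 fell. These 4 of 9 stand beside 37.2% of all genes tested that passed the threshold (limma, Benjamini-Hochberg adjusted p below 0.05 over 12203 genes), 17.1% higher and 20.1% lower. With the 4 siRNA samples fitted as 1 group, which adds the difference between the siRNAs to the spread, HLA-B alone passed (adjusted p = 0.095 for HLA-C, 0.27 for B2M and 0.052 for TAP1). The median log2 difference was 0.12 over the 9 members and -0.0068 over all genes tested. Every difference below is on the log2(FPKM + 1) scale, which understates the change of low genes, and fold values are ratios of mean FPKM. For HLA-B, HLA-C, B2M, TAP1 and TAP2 the 4 siLINC01534 samples lay above both parent samples, which is 5 of 9 members against 19.0% of all genes tested. For 0 of the 9 did they lie below both, against 19.3% of all genes. The members were chosen with earlier results of these data known, so these counts are descriptive.

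**Figure D2:**
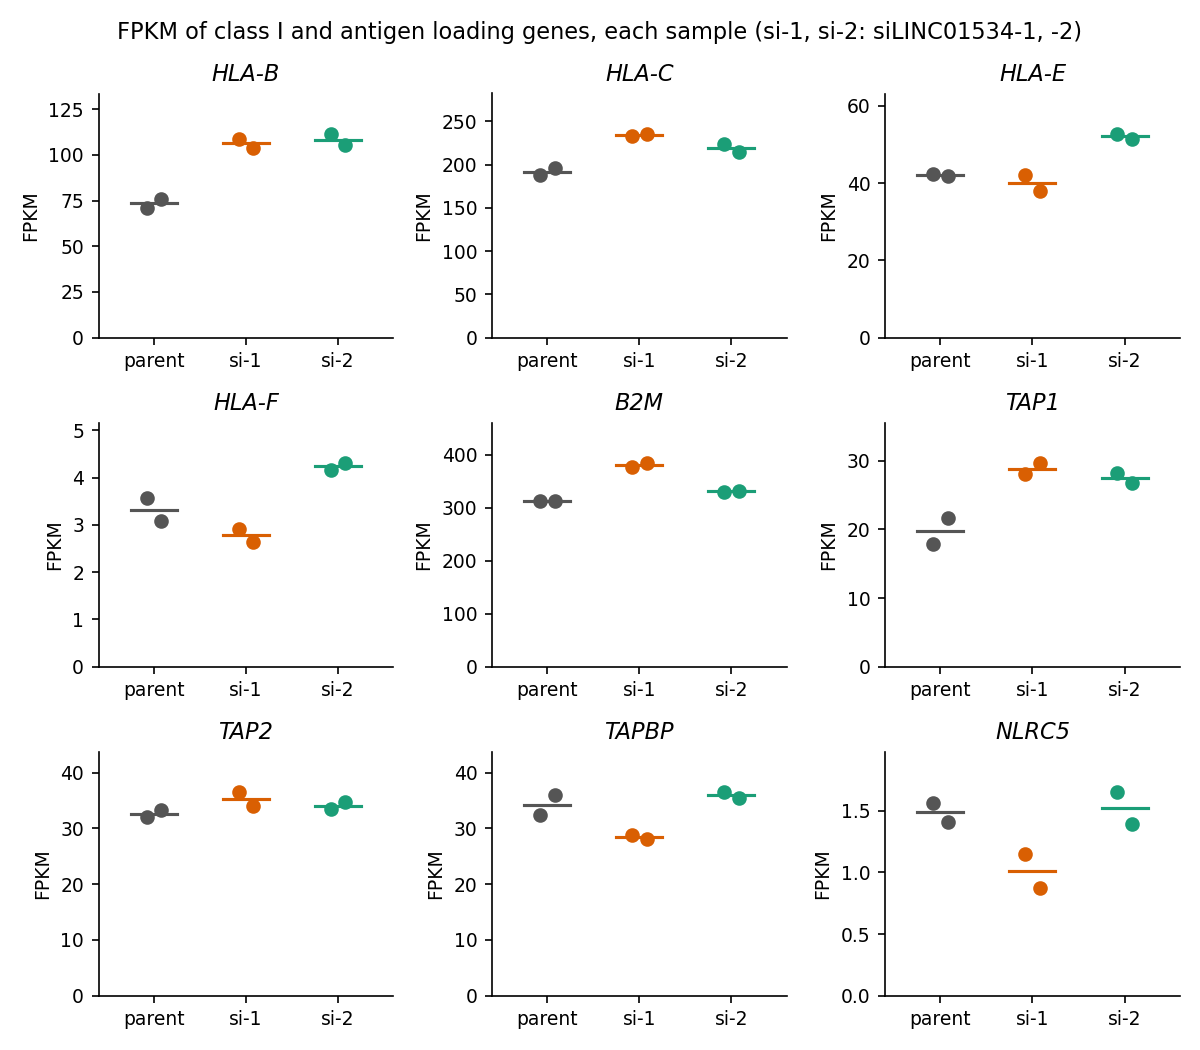
FPKM (y axis, linear, from 0) of each of the 9 genes in parent, siLINC01534-1 (si-1) and siLINC01534-2 (si-2) samples; points are samples and lines group means. HLA-B, HLA-C and TAP1 are higher with both siRNAs, whereas HLA-E, HLA-F and TAPBP are lower with siLINC01534-1 than with siLINC01534-2.

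The heavy chains present the peptide, and HLA-B and HLA-C are the classical ones among these 4. HLA-B (chr6:31321649-31334844, minus strand, GRCh37) stood at 71.0 and 76.0 FPKM in parent, 109 and 104 FPKM in siLINC01534-1, and 111 and 105 FPKM in siLINC01534-2. The siRNA samples overlapped each other and lay well above the parent samples. HLA-B rose 1.46-fold with both siRNAs together (log2 difference 0.54, SE 0.045, adjusted p = 9.0e-04). It rose by 0.53 with siLINC01534-1 (adjusted p = 9.7e-04) and by 0.55 with siLINC01534-2 (adjusted p = 0.0029). The siRNAs differed from each other by -0.03 (95% interval -0.16 to 0.10).

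HLA-C (chr6:31236526-31239907, minus strand, GRCh37) had the highest FPKM of the 4 heavy chains. Its level was 188 and 196 FPKM in parent, 233 and 235 FPKM in siLINC01534-1, and 224 and 215 FPKM in siLINC01534-2. The 3 groups did not overlap. The increase was 1.18-fold with both siRNAs (log2 difference 0.24, SE 0.033, adjusted p = 0.0041), 0.29 on the log2 scale with siLINC01534-1 (adjusted p = 0.0025) and 0.19 with siLINC01534-2 (adjusted p = 0.021). The call with siLINC01534-2 was lost when any 1 of the 6 samples was left out (adjusted p = 0.052 to 0.094) with the replicate number as a block (adjusted p = 0.051) and without the trend in the spread (adjusted p = 0.054). The HLA-B to HLA-C ratio was 0.379 and 0.388 in parent, 0.467 and 0.441 in siLINC01534-1, and 0.498 and 0.491 in siLINC01534-2. It was higher in 4 of 4 siRNA samples than in parent (exact permutation test, two-sided p = 0.0667, the smallest that 4 against 2 samples allow).

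HLA-E, a nonclassical heavy chain that presents signal peptides of other class I molecules to NKG2 receptors, separated the siRNAs. Located at chr6:30457286-30461971 on the plus strand (GRCh37), it was at 42.3 and 41.8 FPKM in parent, 42.2 and 38.1 FPKM in siLINC01534-1, and 52.7 and 51.5 FPKM in siLINC01534-2. The siLINC01534-1 samples overlapped parent, and the siLINC01534-2 samples lay above all others. HLA-E rose 1.24-fold with siLINC01534-2 (log2 difference 0.30, SE 0.056, adjusted p = 0.018), and leaving out either parent or either siLINC01534-2 sample ended that call (adjusted p = 0.079 to 0.096). The value with siLINC01534-1 was -0.07 (95% interval -0.21 to 0.07). The direct test between the siRNAs gave -0.37 (SE 0.056, adjusted p = 0.0049).

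HLA-F, a nonclassical heavy chain of low abundance, showed the same split at a much lower level. This gene (chr6:29690552-29706305, plus strand, GRCh37) was at 3.58 and 3.08 FPKM in parent, 2.92 and 2.64 FPKM in siLINC01534-1, and 4.17 and 4.31 FPKM in siLINC01534-2, or about 35 to 60 reads per sample by the depth estimate. The siLINC01534-1 samples were the lowest and the siLINC01534-2 samples the highest, with no overlap between groups. Neither siRNA passed the threshold against parent, with -0.19 (adjusted p = 0.14) and 0.28 (adjusted p = 0.087). The siRNAs differed from each other by -0.47 (SE 0.093, adjusted p = 0.012), and this call ended without the second siLINC01534-1 sample (adjusted p = 0.060) or the second siLINC01534-2 sample (adjusted p = 0.057). HLA-F-AS1, annotated on the opposite strand with overlapping exons, was listed at 1.39 to 2.08 FPKM, and the strand setting of the counting is not stated.

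Reads from near-identical class I genes can be moved from one gene to another by the counting, so the 4 heavy chains were also summed. Among annotated coding transcripts of the 4 genes (GENCODE, GRCh37), 1 of 1624 distinct 75-nt stretches of HLA-C and 1 of 2474 of HLA-E occurred in another of the 4, and 0 stretches of HLA-B and HLA-F did. Class I genes and pseudogenes outside the 4 were not compared, and alleles of HCT116 may differ from the reference. The summed level was 305 and 316 FPKM in parent, 387 and 380 FPKM in siLINC01534-1, and 392 and 376 FPKM in siLINC01534-2. Both siRNA groups stood at the same height, 1.235-fold (siLINC01534-1) and 1.236-fold (siLINC01534-2) the parent level, and they overlapped each other. The exact permutation test of the 4 siRNA samples against parent gave a two-sided p = 0.0667, the smallest that its 15 assignments can give.

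The makeup of that sum differed between the siRNAs. HLA-C made up 61.6% and 61.8% of it in parent, 60.2% and 62.0% in siLINC01534-1, and 57.1% and 57.1% in siLINC01534-2. HLA-E made up 13.9% and 13.2% in parent, 10.9% and 10.03% in siLINC01534-1, and 13.4% and 13.7% in siLINC01534-2. HLA-B made up 23.3% and 24.0% in parent and 27.3% to 28.4% in the siRNA samples. The share of HLA-B was thus above parent with both siRNAs, the share of HLA-E was below parent with siLINC01534-1 alone, and the share of HLA-C was below parent in both siLINC01534-2 samples.

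B2M encodes beta-2-microglobulin, the light chain of class I molecules. It lies at chr15:45003556-45011049 on the plus strand (GRCh37) and was the most abundant member. Its level was 313 and 313 FPKM in parent, 377 and 384 FPKM in siLINC01534-1, and 331 and 332 FPKM in siLINC01534-2. The groups did not overlap, and the siLINC01534-2 samples stood nearer to parent. B2M rose 1.22-fold with siLINC01534-1 (log2 difference 0.28, SE 0.029, adjusted p = 0.0011). With siLINC01534-2 the value was 0.08 (95% interval 0.0072 to 0.15, adjusted p = 0.11), and the test between the siRNAs gave 0.20 (SE 0.029, adjusted p = 0.0041). Both siRNAs together gave 0.18 (SE 0.025, adjusted p = 0.0045). The ratio of the heavy chain sum to B2M was 0.972 and 1.01 in parent, 1.03 and 0.987 in siLINC01534-1, and 1.19 and 1.13 in siLINC01534-2, so it lay above the other samples with siLINC01534-2 (4 siRNA samples against 2, exact permutation test, two-sided p = 0.2).

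**Figure D3:**
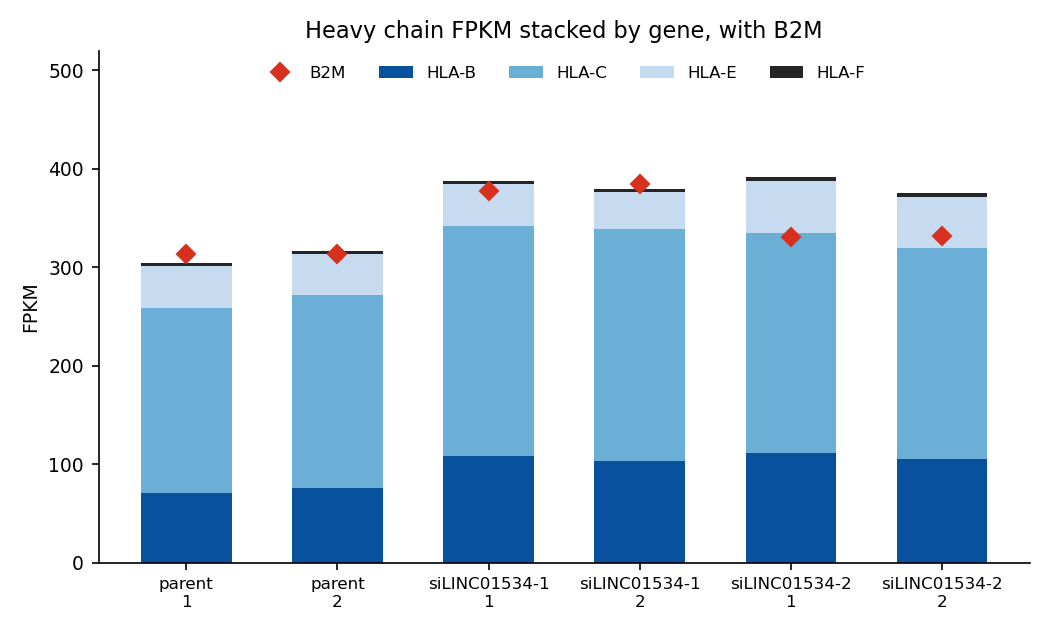
Stacked FPKM of the 4 heavy chain genes (bars, y axis from 0) and FPKM of B2M (diamonds) in each of the 6 samples. The bars reach 376 to 392 FPKM in the siRNA samples against 305 and 316 FPKM in parent, and the diamonds stand highest in siLINC01534-1, at 377 and 384 FPKM.

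TAP1 and TAP2 encode the subunits of the heterodimer that pumps peptides into the endoplasmic reticulum. The former rose and the latter did not pass the threshold. TAP1 (chr6:32812986-32821593, minus strand, GRCh37) was at 17.9 and 21.7 FPKM in parent, 28.1 and 29.6 FPKM in siLINC01534-1, and 28.2 and 26.7 FPKM in siLINC01534-2. The siRNA samples overlapped each other above both parent samples. TAP1 rose 1.42-fold with both siRNAs (log2 difference 0.49, SE 0.081, adjusted p = 0.0074), by 0.53 with siLINC01534-1 (adjusted p = 0.0070) and by 0.46 with siLINC01534-2 (adjusted p = 0.023). Without the second siLINC01534-1 sample the call for that siRNA ended (adjusted p = 0.053), and the call for siLINC01534-2 ended without any of 5 samples, all but the second parent sample (adjusted p = 0.059 to 0.11). PSMB8-AS1, whose exons overlap TAP1 on the opposite strand, was listed at 0.086 to 0.279 FPKM.

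TAP2 (chr6:32789610-32806516, minus strand, GRCh37) was at 32.0 and 33.4 FPKM in parent, 36.5 and 34.1 FPKM in siLINC01534-1, and 33.4 and 34.7 FPKM in siLINC01534-2. The samples of both siRNAs lay just above parent. The log2 difference for both siRNAs was 0.08 (95% interval -0.025 to 0.19, adjusted p = 0.19). The TAP1 to TAP2 ratio was 0.559 and 0.650 in parent, 0.769 and 0.869 in siLINC01534-1, and 0.842 and 0.771 in siLINC01534-2. TAP2 thus exceeded TAP1 in every sample, and the ratio was nearer to 1 in 4 of 4 siRNA samples (exact permutation test, two-sided p = 0.0667).

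TAPBP encodes tapasin. At chr6:33267471-33282061 on the minus strand (GRCh37), it was at 32.3 and 36.0 FPKM in parent, 28.9 and 28.1 FPKM in siLINC01534-1, and 36.5 and 35.5 FPKM in siLINC01534-2. The siLINC01534-1 samples were the lowest, and the siLINC01534-2 samples overlapped parent. TAPBP was the 1 member that fell with an siRNA, by 0.25 on the log2 scale with siLINC01534-1 (SE 0.059, adjusted p = 0.018). This call ended without the second parent sample (adjusted p = 0.060) or either siLINC01534-1 sample (adjusted p = 0.068 and 0.093). With siLINC01534-2 the value was 0.08 (95% interval -0.071 to 0.22). The siRNAs differed by -0.33 (SE 0.059, adjusted p = 0.0087), a call that ended without the second siLINC01534-1 sample (adjusted p = 0.058) or the first siLINC01534-2 sample (adjusted p = 0.054).

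NLRC5, the transactivator of class I promoters, was the least abundant member. Located at chr16:57023397-57117443 on the plus strand (GRCh37), it was at 1.56 and 1.41 FPKM in parent, 1.15 and 0.874 FPKM in siLINC01534-1, and 1.65 and 1.39 FPKM in siLINC01534-2, or about 58 to 100 reads per sample by the depth estimate. The siLINC01534-1 samples were the lowest, and the siLINC01534-2 samples spanned the parent samples. None of its contrasts passed the threshold in the main fit: the log2 difference was -0.31 with siLINC01534-1 (95% interval -0.63 to 0.02, adjusted p = 0.11), 0.02 with siLINC01534-2 (95% interval -0.31 to 0.35, adjusted p = 0.93) and -0.33 between the siRNAs (adjusted p = 0.098). In the limma fit without the trend in the spread, the value with siLINC01534-1 passed narrowly (adjusted p = 0.0496).

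Counted by siRNA, 4 members rose with siLINC01534-1 (HLA-B, HLA-C, B2M and TAP1) and 1 fell (TAPBP), beside 46.3% of all genes tested that passed the threshold, 21.8% higher and 24.5% lower. With siLINC01534-2, 4 rose (HLA-B, HLA-C, HLA-E and TAP1) and 0 fell, beside 22.8% of all genes, 11.1% higher and 11.8% lower. Only HLA-B kept its call for siLINC01534-2 whichever of the 6 samples was left out. Both counts use the same parent samples. Between the siRNAs, B2M was higher with siLINC01534-1 and HLA-E, HLA-F and TAPBP were lower, which is 1 higher and 3 lower of 9 beside 41.8% of all genes, 19.5% higher and 22.3% lower.

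**Figure D4:**
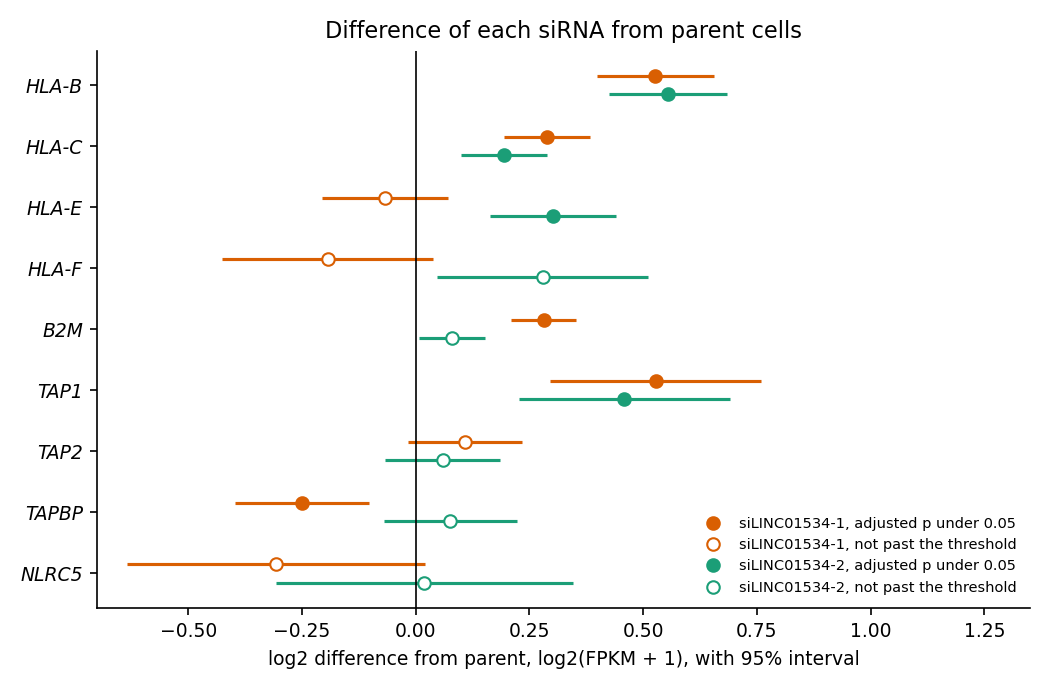
Log2 difference from parent (x axis, log2(FPKM + 1) scale) of each member with siLINC01534-1 and siLINC01534-2; points are estimates, lines 95% intervals, and filled points have an adjusted p below 0.05. HLA-B, HLA-C and TAP1 are filled for both siRNAs, B2M and TAPBP for siLINC01534-1 only, and HLA-E for siLINC01534-2 only.

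By level, the order in parent cells ran from B2M (313 FPKM, mean) through HLA-C (192 FPKM), HLA-B (73.5 FPKM), HLA-E (42.1 FPKM), TAPBP (34.2 FPKM), TAP2 (32.7 FPKM), TAP1 (19.8 FPKM) and HLA-F (3.33 FPKM) to NLRC5 (1.49 FPKM). TAPBP and TAP2 overlapped in parent and were the only neighbours that did. The order was the same with siLINC01534-2. With siLINC01534-1, TAP2 (35.3 FPKM) and TAP1 (28.8 FPKM) stood above TAPBP (28.5 FPKM), of which the last pair overlapped. Over all genes tested B2M and HLA-C had a higher mean FPKM than 97.9% and 96.6% of genes, and NLRC5 than 3.76%.

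The other genes of the pathway were taken from lists of its known parts. The lists were chosen with earlier results of these data known, so the counts set beside shares below are descriptive. Among the chaperones that fold and edit class I molecules in the endoplasmic reticulum, 5 of 5 tested rose with both siRNAs together, beside 17.1% of all genes tested, and TAPBPL was under the level required. HSPA5 (BiP, a general chaperone of the compartment and a target of the unfolded protein response) was at 255 and 254 FPKM in parent and 695 to 757 FPKM in the siRNA samples, a log2 difference of 1.52 (SE 0.041, adjusted p = 5.3e-05). PDIA3, which joins tapasin in the loading complex, rose by 0.52 and CANX, the chaperone of new heavy chains, by 0.30. CALR, the chaperone of loading complexes, was at 567 and 596 FPKM in parent, 848 and 828 FPKM in siLINC01534-1, and 576 and 579 FPKM in siLINC01534-2. It rose by 0.53 with siLINC01534-1 (adjusted p = 3.3e-04), was at -0.0095 with siLINC01534-2 (adjusted p = 0.88) and differed between the siRNAs by 0.54 (adjusted p = 4.2e-04). With siLINC01534-2 alone, 3 of the 5 chaperones rose, beside 11.1% of all genes tested.

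Of the 7 genes that supply peptides, 5 were tested, and 1 rose and 1 fell with both siRNAs together, beside the same 17.1% higher and 20.1% lower over all genes tested. ERAP1, an aminopeptidase that trims peptides in the endoplasmic reticulum, rose by 0.49 with both siRNAs together (adjusted p = 0.015). By siRNA, ERAP1 was at 0.34 with siLINC01534-1 (adjusted p = 0.057) and 0.63 with siLINC01534-2 (adjusted p = 0.018). PSMB10, an immunoproteasome subunit, was at 41.6 and 44.6 FPKM in parent, 31.8 and 29.3 FPKM in siLINC01534-1, and 42.9 and 44.1 FPKM in siLINC01534-2. It fell by 0.48 with siLINC01534-1 (adjusted p = 0.0018) and was at 0.01 with siLINC01534-2 (adjusted p = 0.88). The other immunoproteasome subunits were low: PSMB9 was at 2.12 to 3.82 FPKM (log2 difference 0.11, adjusted p = 0.67) and PSMB8 at no more than 0.505 FPKM.

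Of 14 transcription factors of class I promoters, 3 rose and 1 fell with both siRNAs together, beside 17.1% of all genes tested that were higher and 20.1% that were lower. RELA, the p65 subunit of NF-kappa B, rose by 0.32 (adjusted p = 0.0016), with 34.2 and 35.1 FPKM in parent and 42.3 to 44.6 FPKM in the siRNA samples. IRF1, an interferon regulatory factor, was at 6.55 and 7.28 FPKM in parent, 7.31 and 7.52 FPKM in siLINC01534-1, and 10.1 and 9.91 FPKM in siLINC01534-2, and it rose by 0.47 with siLINC01534-2 (adjusted p = 0.0080) against 0.09 with siLINC01534-1 (adjusted p = 0.30; between siRNAs -0.38, adjusted p = 0.0070). NFKB1, the p50 subunit of NF-kappa B, rose by 0.23 with both siRNAs together (adjusted p = 0.045), with 0.36 for siLINC01534-1 (adjusted p = 0.014) and 0.09 for siLINC01534-2 (adjusted p = 0.42; between siRNAs 0.26, adjusted p = 0.040). NFYA, a CCAAT-binding subunit, fell by 0.32 with both siRNAs together (adjusted p = 0.012), with -0.51 for siLINC01534-1 (adjusted p = 0.0030) and -0.14 for siLINC01534-2 (adjusted p = 0.22; between siRNAs -0.37, adjusted p = 0.010).

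Of the interferon gamma receptor and its kinases, 3 of 4 rose with both siRNAs together, beside 17.1% of all genes tested: IFNGR1 by 0.32 (adjusted p = 0.0026), JAK1 by 0.24 (adjusted p = 0.0049) and IFNGR2 by 0.22 (adjusted p = 0.044). IFNGR2 rose with siLINC01534-2 (0.45, adjusted p = 0.012) and was at -0.02 with siLINC01534-1 (adjusted p = 0.85), at 15.8 and 17.4 FPKM in parent, 15.4 and 17.3 FPKM in siLINC01534-1, and 23.4 and 22.7 FPKM in siLINC01534-2 (between siRNAs -0.47, adjusted p = 0.0052). Of 5 stress-induced class I-like ligands of NKG2D, 1 rose with both siRNAs together, beside 17.1% of all genes tested. This was ULBP2 (log2 difference 0.37, adjusted p = 0.0499), which stood at 6.995 and 8.502 FPKM in parent, 15.6 and 14.3 FPKM in siLINC01534-1, and 6.20 and 7.80 FPKM in siLINC01534-2. ULBP2 rose with siLINC01534-1 alone (0.87, adjusted p = 0.0039) and was at -0.13 with siLINC01534-2 (adjusted p = 0.51; between siRNAs 0.999, adjusted p = 0.0029). Of the other B2M partners, 2 of 5 were tested and 0 passed the threshold, and of 8 MHC class II genes 4 were tested and 0 passed it. No class II gene exceeded 3.81 FPKM. The median log2 differences with both siRNAs were 0.30 for the chaperones, 0.06 for peptide supply, 0.09 for the transcription factors, 0.23 for the receptor and kinases, 0.04 for the stress ligands and -0.01 for class II, beside -0.0068 over all genes tested.

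**Figure D5:**
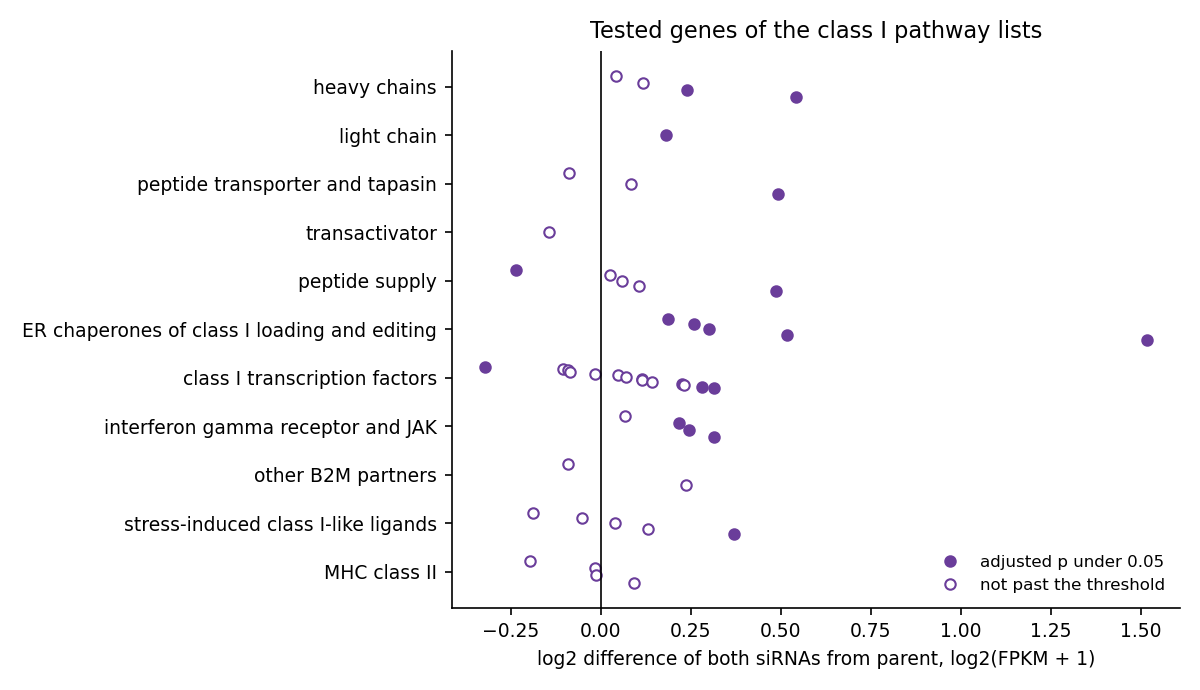
Log2 difference of both siRNAs from parent (x axis, log2(FPKM + 1) scale) for each tested gene of the class I pathway lists (1 row per list); filled points have an adjusted p below 0.05. The point farthest right is HSPA5, at 1.52, and the 5 chaperones are all filled.

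The members that followed the summed heavy chain level most closely across the 6 samples were HLA-B (Pearson r = 0.999), TAP1 (0.960) and HLA-C (0.942), of which HLA-B and HLA-C are part of the sum. Among 6745 genes outside the members whose mean FPKM reached 10, the highest r values belonged to RPS25 (0.997), RPS2 (0.995), MAFF (0.994), NFKBIA (0.994) and ARTN (0.992). NFKBIA, the NF-kappa B inhibitor that is itself an NF-kappa B target, was at 22.7 and 25.0 FPKM in parent and 44.6 to 47.7 FPKM in the siRNA samples. MAFF, a small MAF transcription factor, was at 5.29 and 6.48 FPKM in parent and 15.4 to 17.3 FPKM in the siRNA samples. The ribosomal protein genes moved less, RPS25 from 1573 and 1605 FPKM in parent to 1703 to 1744 FPKM. These values describe 6 samples that share 3 groups and their libraries. The r values of these genes are the largest of 6745, and a step from parent to siRNA samples can by itself give a high r. All 4 siLINC01534 samples lay above both parent samples in 19.0% of all genes tested.

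Positions 2 to 8 of the antisense strand of each siRNA were matched to the 3′ untranslated region of the longest coding transcript of each gene (GENCODE, GRCh37). The match of siLINC01534-1, GAATAAA, was present in HLA-F, TAP2 and TAPBP, which is 3 of the 9 members beside 26.8% of 10579 tested genes. Those letters contain the common polyadenylation signal. The match of siLINC01534-2, TTCGAGT, was present in 0 of the 9 members and in 1.91% of genes. Over those 10579 genes, the median log2 difference with siLINC01534-1 was -0.137 for genes with its match and 0.0312 for genes without. With siLINC01534-2 and its match these medians were 0.0121 and 0.00478. Of the 3 members with the GAATAAA match, TAPBP fell with siLINC01534-1, HLA-F was at -0.19 and TAP2 at 0.11. A part of the match in any of these values was not tested.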

How the data were processed

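RNA-seq of 6 HCT116 samples in 3 groups was analysed. The authors prepared poly(A) libraries with a stranded kit, sequenced 75-nt single-end reads and mapped them to hg19 with TopHat2 2.0.13, Bowtie2 2.2.3 and SAMtools 0.1.19 per the submitters' processing notes. The deposited values are FPKM per gene symbol and sample from Cufflinks 2.2.1. How reads with several positions were counted, and the annotation behind the symbols, are not given in the sources used here. Groups came from the sample titles.

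FPKM were not counts, so log2(FPKM + 1) was fitted for the 12203 genes whose mean FPKM reached 1, with limma 3.58.1 in R 4.3.3 (trend, 1 mean per group, 6 samples), and two-sided p-values were Benjamini-Hochberg adjusted over all of them, with a threshold of 0.05. A run of the fit on simulated data, with planted changes larger than those of the members, checked the code and not the calls made here. Other steps used Python 3.11.15, pandas 2.3.3 and numpy 2.4.6. Depth and read numbers are estimates from the steps between low FPKM, with 200 nt taken off the transcript length. Motif shares are over RefSeq windows, and gene positions are from GENCODE v44 lifted to GRCh37.

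The members and lists were chosen with earlier results of these data known. Beyond the 9 members, genes named were those past the threshold with both siRNAs (at most 4 per list, by size), a few pathway genes named in every case (1 of them is not reported here), the 5 genes most like the heavy chain sum, and LINC01534. CD68, COL1A1 and the other genes of the marker lists are named for their levels. Alternatives changed the pseudocount, the filter, the spread, the scaling, the call rule, the samples and the replicate block.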

Additional observations from a re-analysis of the deposited data

Results flagged for a closer look

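The effects of the siRNAs against the same parent samples differed for 4 members by the test of the difference itself (limma, adjusted over 12203 genes, siLINC01534-1 minus siLINC01534-2). HLA-E differed by -0.37 (adjusted p = 0.0049), HLA-F by -0.47 (adjusted p = 0.012) and TAPBP by -0.33 (adjusted p = 0.0087), each lower with siLINC01534-1 in 2 of 2 samples. B2M differed by 0.20 (adjusted p = 0.0041) and was higher with siLINC01534-1 in 2 of 2 samples. Such differences were common, at 41.8% of all genes tested.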

How the results depend on the processing

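Of 505 values of members under alternatives, 463 kept their direction and their side of the threshold, 28 lost the threshold, 5 gained it and 9 changed sign. Several alternatives, such as the filters, the replicate block and the fit without the trend, leave the log2 difference as it was. They can move only the threshold call, so the tally is no measure of how firm the directions are. The gained calls included NLRC5 with siLINC01534-1 without the trend and TAP2 with siLINC01534-1 under quantile normalization (limma, adjusted p = 0.032). The changes of sign were all in values that had not passed the threshold. With quantile normalization HLA-E with siLINC01534-1 was at 0.00095, NLRC5 with siLINC01534-2 at -0.0034 and HLA-B between the siRNAs at 0.0396. Leaving out 1 sample at a time gave -0.041 to 0.126 for HLA-F with both siRNAs, -0.14 to 0.0054 for HLA-E with siLINC01534-1, -0.055 to 0.093 for NLRC5 with siLINC01534-2 and -0.067 to 0.011 for HLA-B between the siRNAs. The count of members past the threshold with both siRNAs was 4 to 5 when 1 sample was left out, 1 when the 4 siRNA samples formed 1 group (361 genes called in all, against 4541), and 0 by a 2-fold rule (339 genes). HLA-B was the 1 that remained in a single siRNA group, with adjusted p = 0.095 for HLA-C, 0.27 for B2M and 0.052 for TAP1. The count ranged from 3 to 5 with siLINC01534-1, from 1 to 2 with siLINC01534-2 and from 2 to 4 between the siRNAs when 1 sample was left out, and it was 0 by the 2-fold rule in each (713, 318 and 574 genes in all, against 5654, 2788 and 5096). Without 1 sample the genes called in all numbered 2219 to 3689 with both siRNAs, 3907 to 5241 with siLINC01534-1, 857 to 1931 with siLINC01534-2 and 3196 to 4515 between the siRNAs. The cause of these changes was not tested. The heavy chain sum of HLA-B and HLA-C alone was 1.284 times the parent level with siLINC01534-1, against 1.235 times for the 4 genes. Samples of the same replicate number did not deviate together (correlations of 0.11, 0.03 and -0.05 between groups). With the replicate block 4 members passed the threshold with both siRNAs, 5 with siLINC01534-1, 3 with siLINC01534-2 and 4 between the siRNAs, and the replicate block ended 1 call, HLA-C with siLINC01534-2, and no other. For HLA-F and NLRC5, about 35 to 100 reads per sample limit the precision.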
